A study of Mus musculus with 6 samples.

Results

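The 10 genes described here are used by enterocytes to take up dietary fat and send it out as lipoprotein, and their transcripts were followed across the cell classes of the mouse ileal crypt. They are the apolipoprotein genes Apob, Apoa1, Apoa4 and Apoc3, the lipid transfer gene Mttp, the triglyceride synthesis gene Dgat1, the fatty acid uptake and binding genes Cd36, Fabp1 and Fabp2, and the transcription factor gene Creb3l3. They were picked by symbol, and all 10 were found among the 32285 genes listed for each library. Epithelial cells of ileal crypts were sorted by the surface protein EpCAM and sequenced as single cells on the MobiNova-100 droplet platform, in 6 libraries. In 3 libraries (Fpr2f/f, labelled WT) the gene for formyl peptide receptor 2, Fpr2, carried recombination sites but was in place. The other 3 libraries (Fpr2VKO) came from mice with the same floxed alleles and a Cre recombinase driven by the Villin promoter, which is active along the whole intestinal epithelium, so that stem cells and enterocytes alike are meant to lose Fpr2. Per the study's methods, the floxed line was on the C57BL/6J background, the groups were matched for sex and age at 8 to 12 weeks, and each comprised 3 mice. The comparison of the groups asks what the epithelium does without this receptor.

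Dietary triglyceride is split in the gut lumen, and the fatty acids enter enterocytes at the brush border, where Cd36 is one of the proteins that take them up. Inside the cell they are carried by fatty acid binding proteins, of which Fabp1 is the liver form and Fabp2 the intestinal form, and Dgat1 performs the last step in rebuilding triglyceride. Mttp then loads the lipid onto apolipoprotein B, the scaffold protein of the chylomicron, which leaves the cell carrying apolipoproteins A-I, A-IV and C-III. Creb3l3 is a transcription factor of liver and intestine known to raise the transcription of apolipoprotein genes. Enterocytes mature as they move from the crypt onto the villus, where most fat is absorbed, and the cells measured here came from a crypt preparation.

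Apoa1, Apoc3 and Apoa4 are neighbours on mouse chromosome 9, at chr9:46228580-46230466, chr9:46232933-46235636 and chr9:46240696-46243459 (build GRCm38, GENCODE vM21), with Apoc3 on the minus strand between the other two on the plus strand. The remaining members lie at chr12:7977648-8016835 (Apob), chr3:138089854-138144968 (Mttp), chr15:76502015-76511953 (Dgat1), chr5:17781690-17888801 (Cd36), chr6:71199827-71205023 (Fabp1), chr3:122895072-122899506 (Fabp2) and chr10:81084324-81098874 (Creb3l3). Annotated genes on the opposite strand overlap Apoa4, Mttp and Fabp2, and whether the counting used strand is not given in the sources used here, so reads of these pairs may not be told apart. RefSeq promoters (GRCm38.p6, 250 bases before and 50 after a start site) were at hand for 8 of the 10 members, as 9 promoters, and not for Apoc3 and Dgat1. The letters CAAAGNNCA, the core read by HNF4, a receptor-type factor that many enterocyte genes depend on, stood on either strand in 4 of the 9 promoters (Apoa4, Apob, Creb3l3 and Fabp2) and in 6.36% of 32851 mouse promoters. The CDX letters TTTATNG stood in those of Apob, Fabp1 and Fabp2 and in 10.9% of all, and the TATA box TATAAA in those of Apob and Fabp1 and in 13.6%. In the Apob promoter the CDX match and the TATA box are almost the same bases. The GATA letters AGATAA (11.2% of all promoters) were found in a second Creb3l3 promoter inside the gene, the one that also holds its HNF4 letters, and the cyclic AMP response letters TGACGT (7.51%) for Mttp. These matches describe letters and do not show a bound site. The sequences of 4 of them follow, with matches in capitals and the rest in lower case, because they are those of an apolipoprotein of the cluster on chromosome 9, of the chylomicron scaffold, and of the pair of fatty acid binding proteins that parted between goblet-like and tuft-like cells. They end where the gene begins in GENCODE, so that the Fabp1 TATA box, which lies past that point, is not shown. All lie on the plus strand and read 5′ to 3′ from chr9:46240594-46240695, chr12:7977427-7977647, chr3:122894822-122895071 and chr6:71199629-71199826.
Apoa4: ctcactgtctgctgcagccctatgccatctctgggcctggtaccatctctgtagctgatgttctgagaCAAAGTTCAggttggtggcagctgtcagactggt
Apob: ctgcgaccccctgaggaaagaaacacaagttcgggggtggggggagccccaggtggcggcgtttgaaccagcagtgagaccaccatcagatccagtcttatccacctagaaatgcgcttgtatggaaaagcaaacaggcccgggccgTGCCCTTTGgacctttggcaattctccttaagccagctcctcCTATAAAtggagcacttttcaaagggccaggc
Fabp2: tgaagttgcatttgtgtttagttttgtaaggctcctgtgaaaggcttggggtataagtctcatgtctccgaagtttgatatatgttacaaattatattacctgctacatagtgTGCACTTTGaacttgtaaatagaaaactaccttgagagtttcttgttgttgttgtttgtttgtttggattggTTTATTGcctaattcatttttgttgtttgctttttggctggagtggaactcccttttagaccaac
Fabp1: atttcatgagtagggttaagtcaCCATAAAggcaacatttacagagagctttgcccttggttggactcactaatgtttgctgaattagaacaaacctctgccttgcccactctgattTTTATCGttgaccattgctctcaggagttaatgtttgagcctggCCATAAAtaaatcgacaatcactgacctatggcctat

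The libraries held 90142126 to 189516114 unique molecular identifiers (UMIs, 1 per captured transcript molecule). The barcodes that passed the limits of 1000 UMIs, 500 genes and 20% mitochondrial UMIs numbered 1868 to 4722 a library. Fpr2 had 0 UMIs in all 6 libraries, which allows at most 3 of all UMIs of a library, or 0.0333 CPM (counts per 1000000 UMIs, counting error only), so its level did not check the labels. Kept barcodes of the Fpr2VKO libraries were deeper, with medians of 6358 to 6728 UMIs against 3033 to 4612. Some libraries shared more kept barcodes than independent draws from all listed barcodes would give. Among Fpr2f/f 1, Fpr2f/f 2, Fpr2VKO 1 and Fpr2VKO 2 the 6 pairs shared 8 to 23 barcodes against 2.54 to 5.54 by such draws, and Fpr2f/f 3 and Fpr2VKO 3 shared 9 against 2.25. The 8 pairs across these 2 sets shared 0 to 4 against 1.79 to 5.68. The labels do not name the sets, shared barcodes were kept as separate cells, and the group differences are also given with the set as a term. Clusters were made and named without the 10 members and 57 other lipid genes, which gave 4085 enterocyte-like, 3065 transit-amplifying (TA)-like, 2432 stem-like, 1867 goblet-like, 980 Paneth-like, 559 enteroendocrine-like and 333 tuft-like cells, 3073 cells without a name, and 282 immune-like cells. The unnamed cells were counted as epithelial, although 28 of them form a cluster led by the immunoglobulin genes Ighm and Jchain. Of the 37435728 UMIs of unnamed cells, 26150136 came from 867 cells of cluster 11 (median 27883 UMIs, led by Gsdmc4, Reg3g and Mgat4c), whose best marker list was that of enterocytes, so that levels of unnamed cells are mostly those of this cluster. A level is given as CPM, the UMIs of a gene per 1000000 UMIs of all cells of that class in that library. Barcodes with fewer than 100 UMIs, which hold 7.25% to 13.1% of a library's UMIs and no whole cell, gave the level of free RNA in the same unit.

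All 10 members had their highest mean level in enterocyte-like cells. For 9 of them this class lay above each of the other 7 epithelial classes in all 6 libraries, the exception being Fabp1, which was higher in tuft-like cells in 1 library. Enterocyte-like cells held 17.6% ± 1.28 (SD, n = 6) of all epithelial UMIs but between 48.2% ± 2.02 of the UMIs of Dgat1 and 91.5% ± 1.75 of those of Apoa1. Outside the enterocyte-like class, 64 of the 70 pairs of a member and an epithelial class had a mean level below that of free RNA over the libraries. A level under that of free RNA does not make a value background, since free RNA is a part of what a cell's barcode holds. In Paneth-like cells the members were at median ratios of 0.0403 (Apoa4) to 0.132 (Cd36) of free RNA. Some other pairs lay well above that, such as Mttp at 0.663 in TA-like and 0.484 in stem-like cells, beside 0.0824 in Paneth-like cells. Whether such values are expression in these classes was not tested.

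Apob, the scaffold of the particle, reached 242, 316 and 226 CPM in Fpr2f/f libraries 1 to 3 and 233, 252 and 199 CPM in Fpr2VKO libraries 1 to 3 in enterocyte-like cells. The groups overlapped, and the next class, the unnamed cells, held 54.7 ± 5.10 CPM (mean ± SD, n = 6). Mttp, which loads Apob with lipid, was at 594, 531 and 517 CPM in Fpr2f/f libraries 1 to 3 and 579, 700.4 and 595 CPM in Fpr2VKO libraries 1 to 3. The unnamed cells again came next for Mttp, at 186 ± 26.1 CPM, followed by TA-like cells at 91.4 ± 9.10 CPM and, not separable from them by the spread, tuft-like cells at 77.7 ± 36.6 CPM. Of these other classes, only the unnamed cells for Mttp had a mean above that of free RNA, which was 142 ± 13.6 CPM for Mttp and 73.0 ± 17.4 CPM for Apob. In cluster 11, the deep part of the unnamed cells, Mttp was at 214 to 241 CPM and Apob at 47.6 to 66.1 CPM.

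Apoa1, the main protein of high density lipoprotein, was at 856, 939 and 1303 CPM in Fpr2f/f libraries 1 to 3 and 1558, 1522 and 881 CPM in Fpr2VKO libraries 1 to 3 in enterocyte-like cells. The groups overlapped, since Fpr2VKO library 3 lay with the lower Fpr2f/f libraries and Fpr2f/f library 3 near the upper Fpr2VKO libraries. No other class had a mean above 50.03 CPM, the mean of tuft-like cells, which ranged from 5.599 to 101 CPM over the libraries. Apoa4, whose protein rides on newly made chylomicrons, was at 62.4, 47.5 and 135 CPM in Fpr2f/f libraries 1 to 3 and 109.8, 203 and 94.9 CPM in Fpr2VKO libraries 1 to 3. These values spread 4.28-fold within the class. Apoc3, an inhibitor of triglyceride clearance from blood, was at 44.3, 49.7 and 55.5 CPM in Fpr2f/f libraries 1 to 3 and 73.7, 114 and 56.1 CPM in Fpr2VKO libraries 1 to 3. The 3 Fpr2VKO values of Apoc3 lay above the 3 Fpr2f/f values, although the highest Fpr2f/f value was within 1 CPM of the lowest Fpr2VKO value.

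Dgat1 was at 397, 570.5 and 444 CPM in Fpr2f/f libraries 1 to 3 and 377, 329.7 and 326 CPM in Fpr2VKO libraries 1 to 3 in enterocyte-like cells, so that all Fpr2VKO values lay below all Fpr2f/f values. Its second class was not epithelial: immune-like cells, led by the lymphocyte genes Ccl5, Gzma and Gzmb, had 328, 408 and 425 CPM in Fpr2f/f libraries 1 to 3 and 309.6, 289.5 and 327 CPM in Fpr2VKO libraries 1 to 3. That was 1.30 to 1.73 times the free RNA of the same library, above it in 6 of 6, whereas for each of the other 9 members immune-like cells were above free RNA in at most 1 library. The library that stood out there was Fpr2VKO 3, with 20 immune-like cells, where Mttp (279 CPM), Fabp1 (356 CPM), Fabp2 (362 CPM) and the summed enterocyte markers (1842 CPM) were high as well. The Dgat1 level of that library, 327 CPM, lay inside the range of the others.

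Cd36 gave few UMIs in these libraries, with 9.41, 10.7 and 8.83 CPM in Fpr2f/f libraries 1 to 3 and 9.51, 17.9 and 10.6 CPM in Fpr2VKO libraries 1 to 3 in enterocyte-like cells and class means of 1.98 CPM or less elsewhere. Fabp1 was at 974, 1064 and 584 CPM in Fpr2f/f libraries 1 to 3 and 2281, 3764 and 959.5 CPM in Fpr2VKO libraries 1 to 3, so that the highest library had 6.45 times the lowest. Fabp2 was at 1342, 1091 and 1653 CPM in Fpr2f/f libraries 1 to 3 and 1952, 2379 and 1694 CPM in Fpr2VKO libraries 1 to 3, with all 3 Fpr2VKO values above the Fpr2f/f values by a margin of 40.4 CPM at the nearest. Creb3l3, the transcription factor, was at 100.1, 147 and 79.8 CPM in Fpr2f/f libraries 1 to 3 and 128, 156 and 96.3 CPM in Fpr2VKO libraries 1 to 3, and no other class had a mean above 9.28 CPM.

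**Figure D1:**
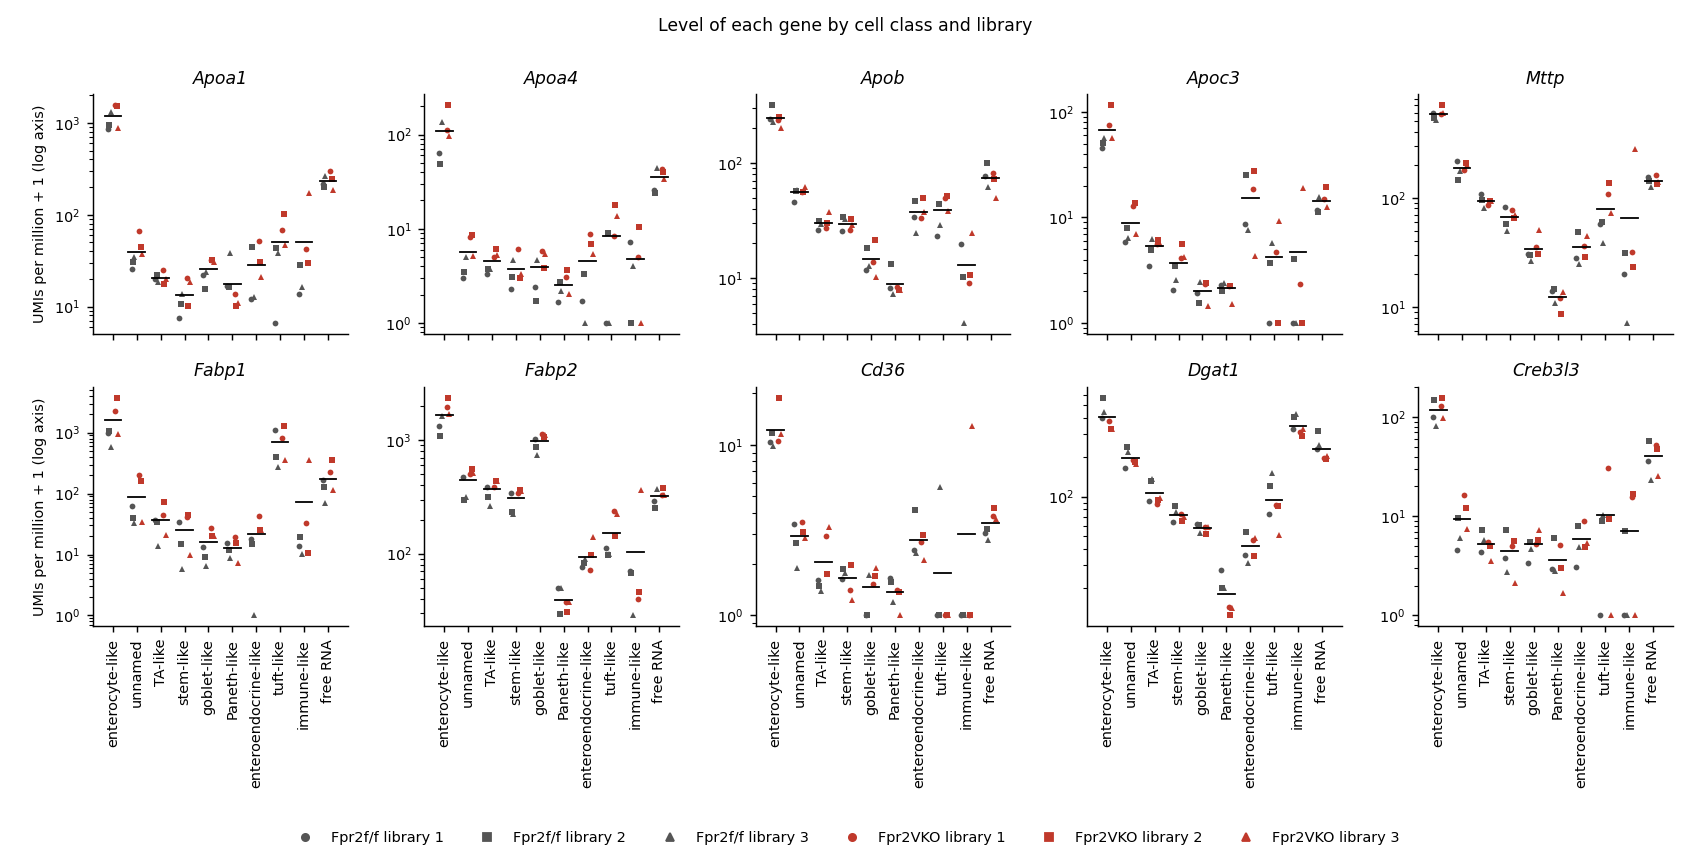
Level of each of the 10 genes (CPM + 1, log axis) by cell class and in free RNA, 1 point per library (grey Fpr2f/f, red Fpr2VKO) with the mean of the 6 libraries as a bar. Enterocyte-like cells are highest for every gene, while Fabp1 is also high in tuft-like cells, Fabp2 in goblet-like cells and Dgat1 in immune-like cells.

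Enterocyte-like and stem-like cells of the same library were compared with the edgeR quasi-likelihood test with the library as a block, Benjamini-Hochberg adjusted over 12823 genes. All 10 members were higher in enterocyte-like cells, where 36.5% of all genes were called higher and 36.7% lower. The classes had been formed from other genes of these same cells. The log2 fold change was 6.65 ± 0.20 (± SE) for Apoa1, 6.13 ± 0.29 for Fabp1, 5.32 ± 0.21 for Apoa4 and 5.17 ± 0.12 for Creb3l3. Next came Apoc3 at 4.70 ± 0.12, Cd36 at 4.13 ± 0.24, Mttp at 3.23 ± 0.08 and Apob at 3.17 ± 0.08. Dgat1 (2.57 ± 0.07) and Fabp2 (2.51 ± 0.10) had the smallest folds. The median of the 10 was 4.42, beside 0.01 over all genes tested.

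Of 57 other genes of lipid handling, in lists chosen with earlier results of these data known, 53 passed the filter on low counts. Of these, 44 were higher in enterocyte-like than in stem-like cells and 4 were lower (all genes: 36.5% higher, 36.7% lower). Their median log2 fold change was 1.47, beside 0.01 over all genes. Triglyceride and cholesterol ester synthesis had 8 of 9 genes higher, among them Mogat2, which makes diglyceride from monoglyceride (3.67), and Agpat2 (2.34), while Gpat4 was lower. For chylomicron assembly and secretion, 7 of 9 tested genes were higher, including Sar1b, a small GTPase of the vesicles that leave the endoplasmic reticulum (1.03), and P4hb, the partner subunit of Mttp (1.46). Apoa5, a liver apolipoprotein, had no UMI in these classes and was not tested. Uptake and activation had 5 of 7 higher, among them the acyl-CoA binding protein gene Dbi (0.83) and the ileal bile acid binding protein gene Fabp6 (5.35), and 2 lower, Acsl3 and Slc27a2. All 3 sterol efflux genes were higher, Abcg5 at 2.77, Abcg8 at 2.84 and Abca1 at 2.94. Lipid droplet genes were higher in 5 of 6, with Cideb at 3.53, and genes of fatty acid oxidation in 5 of 6. Of 13 transcription factors of lipid genes, 11 were higher, such as Hnf4g (1.26) and the bile acid receptor gene Nr1h4 (2.34), but Hnf4a, at -0.13 ± 0.06, did not pass the test.

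Fabp1 and Fabp2 parted outside the enterocyte-like cells. Goblet-like cells had Fabp2 at 1024, 874 and 746 CPM in Fpr2f/f libraries 1 to 3 and 1132, 1061 and 1122 CPM in Fpr2VKO libraries 1 to 3, 2.00 to 3.52 times the free RNA of the same library and above it in 6 of 6. Fabp1 was at 5.45 to 25.9 CPM in those cells, under the free RNA of each library. Tuft-like cells, the chemosensory cells of the epithelium, showed the reverse, with Fabp1 at 1119.8, 395 and 267 CPM in Fpr2f/f libraries 1 to 3 and 829, 1265 and 355 CPM in Fpr2VKO libraries 1 to 3, 3.07 to 6.85 times free RNA, above it in 6 of 6, and Fabp2 at 96.1 to 235 CPM. Within a library the ratio of Fabp2 to Fabp1 UMIs was 43.8 to 137 in goblet-like cells, 0.632 to 2.83 in enterocyte-like cells, 0.1 to 0.624 in tuft-like cells and 1.07 to 5.51 in free RNA, so the ranges of goblet-like and tuft-like cells did not meet each other or that of free RNA. Stem-like cells (8.34 to 45.3) and TA-like cells (6.06 to 21.6) also lay above free RNA, and the stem-like range met the goblet-like range. Within each library, however, the goblet-like ratio was above the stem-like ratio. The range of unnamed cells, 2.53 to 15.1, overlapped that of free RNA, but within each library their ratio was above that of free RNA.

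The same test was run on goblet-like and tuft-like against stem-like cells, both comparisons chosen after their levels had been seen. Of 9 members tested in goblet-like cells, 2 were higher, Fabp2 by 1.89 ± 0.05 and Apoa1 by 1.20 ± 0.15 on the log2 scale, and 3 were lower, Apoc3, Apob and Mttp (all genes: 34.2% higher, 36.2% lower). In tuft-like cells 3 of 9 were higher, Fabp1 by 4.95 ± 0.15, Apoa1 by 1.93 ± 0.29 and Creb3l3 by 1.46 ± 0.58, and Fabp2 was lower by 1.02 (all genes: 16.9% higher, 22.1% lower). Apoa1 and Creb3l3 lay under the level of free RNA in both classes. Within the goblet-like class the cluster led by Zg16, Fcgbp and Clca1 (median 6176 UMIs) had 2.58 to 5.21 times the Fabp2 level of the cluster led by Ern2 (2184 UMIs), and was higher in 6 of 6 libraries. In cells thinned to 2000 UMIs, 64.1% of goblet-like cells had a Fabp2 UMI, beside 59.6% of enterocyte-like and 14.9% of Paneth-like cells. For Fabp1 the shares were 36.6% of tuft-like, 36.0% of enterocyte-like and 6.30% of Paneth-like cells, a class taken here to lack the genes. Thinning left out the shallower cells, 233 of 1058 goblet-like, 53 of 198 tuft-like, 575 of 2686 enterocyte-like and 63 of 506 Paneth-like cells in Fpr2f/f and 87 of 809, 48 of 135, 153 of 1399 and 13 of 474 in Fpr2VKO. Without thinning these were 73.5%, 67.1% and 55.4% for Fabp2 and 35.9%, 46.9% and 28.6% for Fabp1, at median depths of 4529, 3518, 17762 and, in tuft-like cells, 2525 UMIs.

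**Figure D2:**
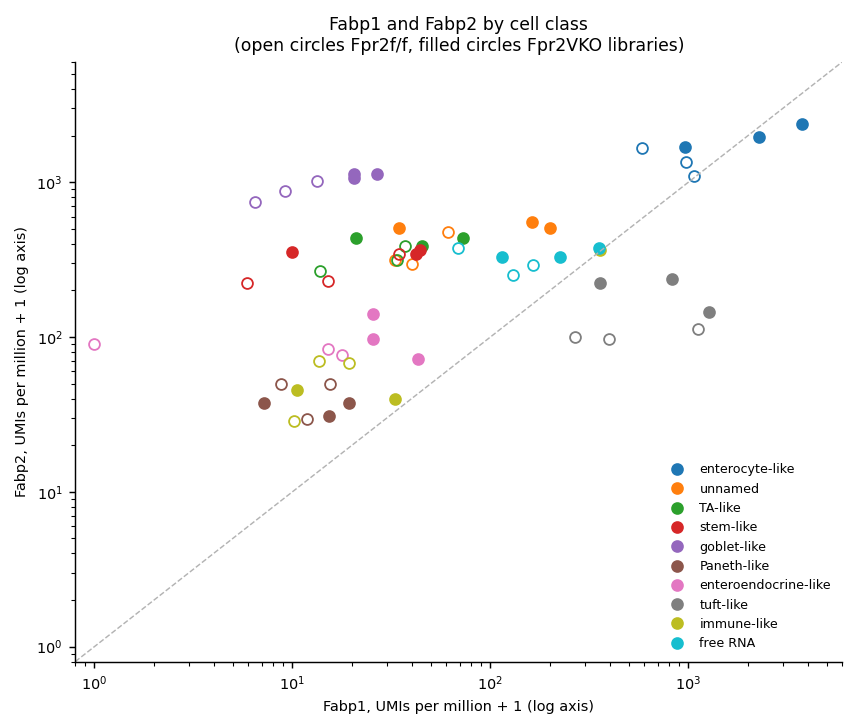
Fabp1 against Fabp2 (CPM + 1, both axes log), 1 point per class and library, open for Fpr2f/f and filled for Fpr2VKO, with equal levels on the dashed line. Goblet-like cells sit at the upper left and tuft-like cells at the lower right, each apart from free RNA, and enterocyte-like cells are high for both genes.

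Apoc3 had its second highest class mean in the enteroendocrine-like cells. Cells of the cluster led by Chgb, Tac1, Chga and Tph1, the last a gene of serotonin synthesis, held 12.8, 44.0 and 8.46 CPM in Fpr2f/f libraries 1 to 3 and 35.9, 55.4 and 4.76 CPM in Fpr2VKO libraries 1 to 3. The cluster led by Gcg, Cck and Ghrl, peptide hormone genes, held 2.05 to 5.73 CPM and was lower in 6 of 6 libraries, with a median ratio of 9.10. The Tph1 cluster was above free RNA in 4 of 6 libraries for Apoc3 and in at most 1 of 6 for each other member. It held 18 cells in Fpr2f/f library 3 and 28 in Fpr2VKO library 3, the 2 libraries at the low end, and the pair of clusters was singled out after its values were seen and was not tested.

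The enterocyte-like class was made of 3 clusters. Cluster 1 (1981 cells, median 2605 UMIs) was led by Areg, Pfkfb3 and Adh6a, cluster 5 (1138 cells, 3682 UMIs) by genes such as Ceacam20 and the ileal bile acid transporter gene Slc10a2, and cluster 10 (966 cells, 28015 UMIs) by Reg1, Spink1, Rbp2 and the brush border gene Sis. In all 6 libraries 6 members, Apoa1, Apoa4, Apoc3, Fabp1, Fabp2 and Cd36, were higher in cluster 10 than in both others. Fabp1 was at 1249, 2021 and 939 CPM in Fpr2f/f libraries 1 to 3 and 2948, 4154 and 1087 CPM in Fpr2VKO libraries 1 to 3 in cluster 10, against 152 to 457 CPM in cluster 1 and 23.0 to 102 CPM in cluster 5. For Fabp2 the ranges were 1726 to 2601 CPM in cluster 10, 443 to 616 in cluster 1 and 167 to 366 in cluster 5. Apoc3 ranged over 58.6 to 126 CPM in cluster 10 and 10.5 to 26.0 CPM in cluster 1. Cluster 5 had the lowest mean of the 3 for 5 of these genes. For Cd36 cluster 1 was above cluster 5 in 3 of 6 libraries, 1 of them with no Cd36 UMI in cluster 5. The Apoa4 level of cluster 5, 4.24 to 25.4 CPM, lay under the free RNA of the same library in 6 of 6.

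Apob, Creb3l3 and Dgat1 ran the other way and had their highest mean in cluster 1. Apob was at 434, 504 and 353 CPM in Fpr2f/f libraries 1 to 3 and 328, 429.7 and 421 CPM in Fpr2VKO libraries 1 to 3 there and at 189 to 254 CPM in cluster 10, without overlap. Creb3l3 had 146 to 233 CPM in cluster 1, 82.4 to 165 in cluster 10 and 26.96 to 98.3 in cluster 5. Dgat1 had 535 to 759 CPM in cluster 1, 408 to 681 in cluster 5 and 271 to 380.2 in cluster 10. In edgeR with the library as a block, cluster 10 exceeded cluster 1 for 7 members (all genes: 30.8%), from Fabp1 (2.49 ± 0.31), Apoc3 (2.37 ± 0.16) and Fabp2 (2.08 ± 0.08) down to Mttp (0.39 ± 0.09). It fell below cluster 1 for 3 (all genes: 31.9%), Dgat1 (-1.07 ± 0.09), Apob (-0.88 ± 0.10) and Creb3l3 (-0.78 ± 0.12). This comparison was added after the clusters had been seen. Clusters 1 and 10 also differ more than 10-fold in depth, and the part of depth in these differences was not tested.

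**Figure D3:**
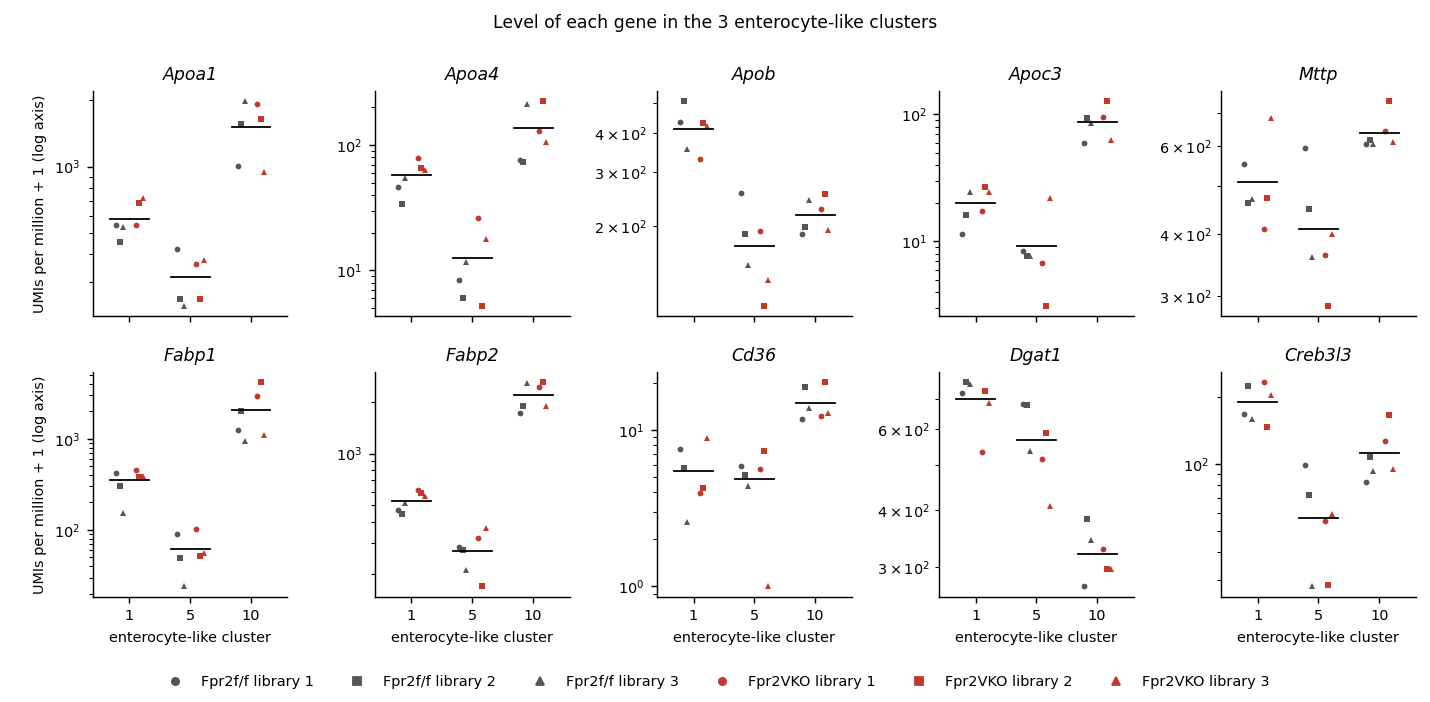
Level of each gene (CPM + 1, log axis, a scale of its own for each gene) in enterocyte-like clusters 1, 5 and 10, 1 point per library (grey Fpr2f/f, red Fpr2VKO) with the mean as a bar. Apoa1, Apoa4, Apoc3, Fabp1, Fabp2 and Cd36 are highest in cluster 10, and Apob, Dgat1 and Creb3l3 in cluster 1.

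A split of the members appeared also among barcodes with 20 to 40% mitochondrial UMIs, which were left out of the cells. Taken over all such barcodes, Creb3l3, Apoa4, Dgat1, Apob, Apoa1, Cd36 and Mttp were higher than in the kept barcodes in 6 of 6 libraries, by median ratios of 2.15 for Creb3l3 down to 1.31 for Mttp. Fabp2 was lower in 6 of 6 (median ratio 0.662), Fabp1 was higher in 1 of 6 (median ratio 0.745) and Apoc3 was higher in 4 of 6 (1.12). The limit on mitochondrial UMIs thus left out barcodes in which members differed in opposite directions by CPM. CPM counts mitochondrial UMIs among all UMIs, so a higher mitochondrial share by itself lowers the CPM of the other genes. Both sets of barcodes pool all cell classes. The part of class mix and of mitochondrial share in these ratios was not tested.

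Within cluster 10 the levels of most members were positively correlated from cell to cell. In 782 cells of at least 10000 UMIs, thinned to 10000, the Spearman correlation was above 0 in all 6 libraries for 43 of 45 pairs and above 0.3 in all 6 for 7 pairs. Apoa1 and Fabp2 had the highest median, 0.62 (range 0.52 to 0.73 over 98 to 232 cells a library), followed by Fabp1 with Fabp2 at 0.52 and Fabp1 with Creb3l3 at 0.51. Dgat1 stood lower against most members, at 0.15 with Fabp1 and 0.36 with Apoa1. Cells of a library share its free RNA and their own depth before thinning, the values are descriptions without a test, and those of Cd36, with a mean of 0.150 UMIs per thinned cell, are too sparse to read.

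**Figure D4:**
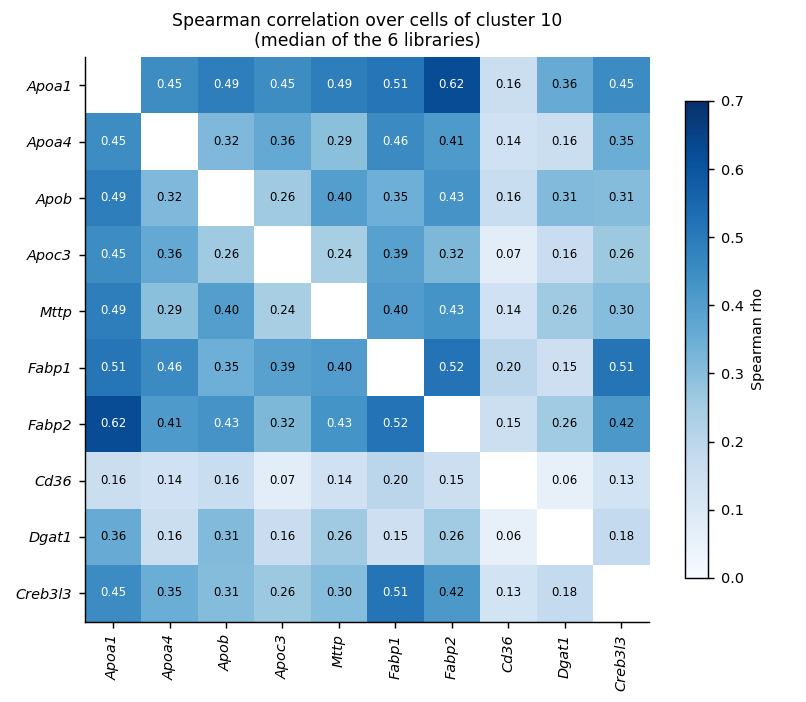
Spearman correlation of each pair of genes over cells of enterocyte-like cluster 10, thinned to 10000 UMIs, as the median of the 6 libraries. The darkest field is Apoa1 with Fabp2 at 0.62, and the palest is Cd36 with Dgat1 at 0.06.

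Over the means of 17 clusters, on the scale of log2(CPM + 1), Apoa1 and Apoa4 had a Pearson r of 0.95, as had Apoa1 and Creb3l3. Apoc3, which lies between Apoa1 and Apoa4 on chromosome 9, had an r of 0.77 with Apoa1 and 0.81 with Apoa4. Apoc3 and Fabp2 had the lowest r among the members, 0.41. Of 6451 genes of at least 20 CPM as a mean over clusters, members and mitochondrial genes were left out of the ranking. Among the rest, the alcohol dehydrogenase gene Adh6a was the most like Apoa1 (0.96), Apoa4 (0.92) and Creb3l3 (0.95). Mttp was most like the brush border peptidase gene Enpep (0.98), Dgat1 like Ehd1 (0.98), Apob like Depdc7 (0.93) and Fabp2 like Chpt1, an enzyme of phosphatidylcholine synthesis (0.95). Apoc3 was most like the retinal dehydrogenase gene Aldh1a1 (0.91) and Fabp1 like Spink1 (0.86). These are correlations across clusters of the same cells, which share libraries, and carry no test.

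The groups were compared with edgeR on UMIs summed per library, 3 against 3. In enterocyte-like cells 0 of 10 members passed an adjusted p of 0.05 with edgeR, where 11 of 11600 genes (0.0948%) did, 3 members had an unadjusted p under 0.05, as had 17.6% of all genes, and DESeq2 called 1, Fabp2 (adjusted p = 0.0366), and 1.69% of all genes. Fabp2 was nearest, with a log2 fold change (Fpr2VKO over Fpr2f/f) of 0.59 ± 0.17 and an adjusted p of 0.135, followed by Dgat1 at -0.44 ± 0.16 (adjusted p = 0.187) and Apoc3 at 0.74 ± 0.26 (adjusted p = 0.207). These are the 3 members whose groups did not overlap, a share close to the 23.1% of all 9279 genes of at least 5 CPM whose groups did not overlap. Fabp1 had the highest fold, 1.43 ± 0.63, and an adjusted p of 0.328. The remaining values were 0.79 ± 0.53 for Apoa4, 0.42 ± 0.26 for Cd36, 0.39 ± 0.23 for Apoa1, 0.22 ± 0.30 for Creb3l3, 0.20 ± 0.15 for Mttp and -0.19 ± 0.17 for Apob. The mean was higher in Fpr2VKO for 8 of the 10, and the median of the members was 0.40 beside -0.01 over all genes. Of the 53 other lipid genes tested in these cells, edgeR and DESeq2 called 0, and 10 had an unadjusted p under 0.05 in edgeR, a share near that of all genes. With a limit of 10% mitochondrial UMIs, which left 594 enterocyte-like cells (34 to 202 a library), Apoa1 (1.78, adjusted p = 0.000969), Apoc3 (1.69, adjusted p = 0.00352) and Fabp2 (1.20, adjusted p = 0.0307) were called higher in Fpr2VKO by edgeR, where 0.136% of all genes were called. The deeper of the 2 clusters of that class (median 20888 UMIs against 3037) held 40 of 100, 44 of 202 and 28 of 174 of its cells in Fpr2f/f libraries 1 to 3 and 24 of 34, 22 of 50 and 18 of 34 in Fpr2VKO, and the part of this make-up in the 3 calls was not tested. A p above the threshold does not show that the levels were alike.

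The make-up of the class moved with the group. Cluster 10 made up 20.8%, 8.83% and 18.4% of enterocyte-like cells in Fpr2f/f libraries 1 to 3 and 27.5%, 50.4% and 47.1% in Fpr2VKO libraries 1 to 3, without overlap. By cells, cluster 1 was the largest part of the class in Fpr2f/f libraries 1 and 2 and Fpr2VKO library 1, cluster 5 in Fpr2f/f library 3, and cluster 10 in Fpr2VKO libraries 2 and 3. Levels and fits of the class sum UMIs, and of its 37676775 UMIs over all libraries cluster 10 held 26646686. Cluster 1 held 5834131 of them and cluster 5 held 5195958. These sums pool both groups and do not show the share of UMIs that each cluster held in each group. The summed level of the 14 enterocyte markers, none of them at 0, was 4784 to 5787 CPM in the Fpr2f/f and 6639 to 6872 CPM in the Fpr2VKO libraries. Of the markers of other classes in these cells, the 8 goblet genes summed to 593 to 1632 CPM against 447 to 744 CPM, and the 8 Paneth genes to 472 to 2723 CPM against 929 to 2931 CPM. The part of these markers and of depth in the values of the members was not tested.

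Each of the 3 clusters was also fitted alone, a step chosen after seeing the data, and in cluster 10 the members that had led lay nearer to 0. In cluster 10 alone Fabp2 was at 0.15 ± 0.16, Apoc3 at 0.24 ± 0.33, Dgat1 at -0.13 ± 0.14 and Apoa1 at -0.02 ± 0.38, and the median of the 10 was 0.13. Fabp1 was at 0.94 ± 0.65 in cluster 10, against 1.43 ± 0.63 over all enterocyte-like cells. Creb3l3 went the other way, at 0.44 ± 0.21 in cluster 10 against 0.22 ± 0.30 over all enterocyte-like cells. The highest value in cluster 1 was that of Apoa4, 0.76 ± 0.25 (adjusted p = 0.457), where 7 of 9 members were above 0 and the median was 0.29. In cluster 5, where fewer members passed the filter on low counts, 3 of 7 were above 0, led by Fabp1 at 0.65 ± 0.55, and the median was -0.31. Of the other lipid genes there, 13 of 47 were above 0, with a median of -0.15 beside 0.00 over all genes. The difference between clusters was not tested, and the members tested were not the same in each. Mttp (-0.43 ± 0.18) and Dgat1 (-0.35 ± 0.17) had an unadjusted p under 0.05 there in edgeR. No member was called in cluster 1 (0.0294% of all genes called), cluster 5 (0.027%) or cluster 10 (0.0293%), where 9, 7 and 10 of them were tested, and 1, 2 and 0 of these had an unadjusted p under 0.05 in edgeR, as had 7.26%, 4.47% and 5.04% of all genes. The summed enterocyte markers did not overlap between the groups within cluster 10 either, at 6512 to 6651 CPM in Fpr2f/f against 7061 to 7912 CPM in Fpr2VKO. Markers of other classes were apart in clusters 1 and 5. The 10 stem markers summed to 155 to 181 CPM in Fpr2f/f against 280.0 to 381 CPM in Fpr2VKO in cluster 1 and to 150.1 to 219 CPM in Fpr2f/f against 279.6 to 408 CPM in Fpr2VKO in cluster 5. For the 10 TA markers the sums were 512 to 696 CPM in Fpr2f/f against 771 to 956 CPM in Fpr2VKO in cluster 1 and 535 to 587 CPM in Fpr2f/f against 619 to 809 CPM in Fpr2VKO in cluster 5, and the 8 goblet markers of cluster 1 summed to 1819 to 2442 CPM in Fpr2f/f against 1140.5 to 1513 CPM in Fpr2VKO. The part of these markers in the values of the members was not tested.

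The group difference was fitted again with the set of libraries that share barcodes as a term, a step chosen after seeing the data. In enterocyte-like cells 0 of 10 members were called (0.555% of all genes) and 4 had an unadjusted p under 0.05 (19.7% of all genes), but Fabp1 now lay nearest to the threshold at 1.31 ± 0.23 (adjusted p = 0.0552 in edgeR), against 1.43 ± 0.63 without the term. Its level was 974 and 1064 CPM in Fpr2f/f and 2281 and 3764 CPM in Fpr2VKO within the set of 4 libraries, and 584 against 959.5 CPM within the set of 2, higher in Fpr2VKO in both. Fabp2 stood at 0.59 ± 0.17 (adjusted p = 0.0962) and Dgat1 at -0.43 ± 0.15 with the term. In the 4 libraries of the larger set alone, 2 against 2, again 0 of 10 were called (0.0167% of all genes) and 5 had an unadjusted p under 0.05 (10.3%). Fabp1 (1.58 ± 0.25), Apoa4 (1.53 ± 0.30) and Apoc3 (1.01 ± 0.22) had the highest folds. Apoa1 was at 0.79 ± 0.18 there, and its groups lay the other way in the set of 2, at 1303 CPM in Fpr2f/f and 881 CPM in Fpr2VKO. The same held for Apoa4, with 135 and 94.9 CPM. With the term, Fabp1 was called higher in Fpr2VKO in TA-like cells (0.75 ± 0.16, adjusted p = 0.0479 in edgeR, 1 of 10 members, 0.461% of all genes), where its level was 0.177 to 0.256 times that of free RNA, beside 0.0405 to 0.115 times in Paneth-like cells. Apoa4, Fabp2, Cd36 and Dgat1 also had an unadjusted p under 0.05 there in edgeR (all genes: 9.72%), with Dgat1 lower in Fpr2VKO and the others higher. With the term edgeR called 0 of 9 members in stem-like cells (0.271% of all genes), 4 with an unadjusted p under 0.05 (all genes: 10.1%), and 0 of 10 in all epithelial cells (0.0117%), 3 with an unadjusted p under 0.05 (all genes: 8.95%).

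**Figure D5:**
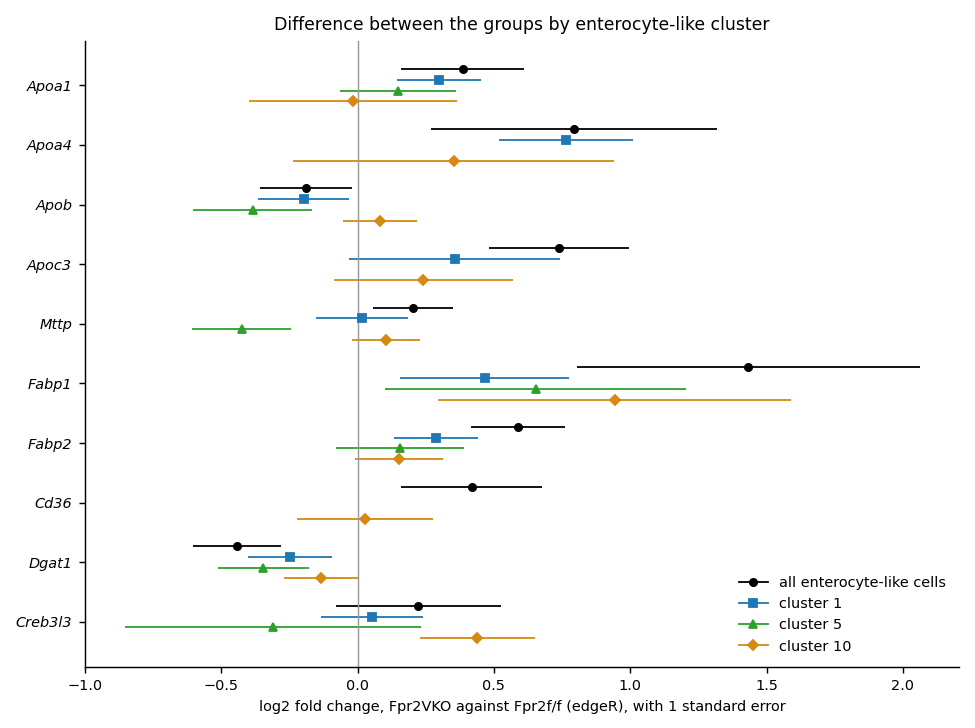
Log2 fold change of each gene, Fpr2VKO against Fpr2f/f libraries (edgeR, bars are 1 standard error), in all enterocyte-like cells and in clusters 1, 5 and 10 alone, where a missing point was not tested. The black points of Fabp2, Apoc3 and Apoa1 lie to the right of those of cluster 10, and the bars of cluster 10 reach or cross 0 for 8 of the 10 genes.

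The dividing classes, TA-like and stem-like cells, were compared in the same way. TA-like cells had 9 members tested and 0 called by edgeR or DESeq2 (0.175% and 0.217% of all genes called), 3 with an unadjusted p under 0.05 (all genes: 7.29%): Apoa4 (0.76 ± 0.30), Fabp2 (0.38 ± 0.15) and Dgat1 (-0.36 ± 0.14). Stem-like cells also had 9 tested and 0 called by either tool (0.218% and 0.487% of all genes), 2 with an unadjusted p under 0.05 (all genes: 9.57%), Apoc3 (1.01 ± 0.42) and Fabp2 (0.37 ± 0.14). Markers moved with the group in both classes without overlap. The 14 enterocyte markers summed to 368 to 462 CPM in Fpr2f/f against 524 to 554 CPM in Fpr2VKO in stem-like cells and to 556 to 610.2 CPM in Fpr2f/f against 635 to 731 CPM in Fpr2VKO in TA-like cells. The 10 stem markers summed to 3243 to 4217 CPM in Fpr2f/f against 6439 to 7570.2 CPM in Fpr2VKO in stem-like cells and to 2278 to 2557 CPM in Fpr2f/f against 3774 to 4567 CPM in Fpr2VKO in TA-like cells, and none of either list was at 0. Cluster 4 (median 3055 UMIs, led by Gphn, Cdca7 and Il31ra) held 244, 465 and 305 of the stem-like cells in Fpr2f/f libraries 1 to 3 and 164, 163 and 82 in Fpr2VKO, and cluster 8 (26903 UMIs, led by Olfm4) held 161, 113 and 147 and 190, 240 and 158. By cells, cluster 4 was thus the larger in each Fpr2f/f library and cluster 8 in each Fpr2VKO library. By UMIs, which the fits sum, cluster 8 held 28177016 and cluster 4 held 5132882 of the 33309898 stem-like UMIs of all libraries. These sums too pool both groups and do not show the shares in each group. The part of markers, clusters and depth in the values of the members was not tested. Levels of most members in these classes were under that of free RNA, and Fabp2 in TA-like cells, 384, 313 and 265 CPM in Fpr2f/f libraries 1 to 3 and 385, 437 and 433 CPM in Fpr2VKO libraries 1 to 3, was the one member whose mean exceeded it. Over all epithelial cells 0 of 10 were called by either tool (0.0181% and 0.665% of all genes), with Fabp2 at 0.50 ± 0.14 and Dgat1 at -0.36 ± 0.15 under an unadjusted p of 0.05 (all genes: 8.72%). The interaction term tests whether the group difference itself differs between enterocyte-like and stem-like cells. It called 0 of 10 members in edgeR (0.39% of all genes) and 0 of 5 with an adjusted p in DESeq2. DESeq2 called 1.04% of all genes tested, a share that counts genes without an adjusted p as not called. Dgat1 alone, at -0.28 ± 0.11, had an unadjusted p under 0.05 in edgeR (all genes: 13.7%). Of the other lipid genes, edgeR called 0 in each of these 4 comparisons, with 9 of 52 (TA-like), 6 of 52 (stem-like), 5 of 55 (all epithelial) and 16 of 53 (interaction) under an unadjusted p of 0.05, and DESeq2 called 0 in TA-like and all epithelial cells, 1 in stem-like cells, and Dbi, Hnf4g and Surf4 in the interaction. In DESeq2, 4 of the 52 in TA-like cells and 47 of the 53 in the interaction had no adjusted p.

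Enterocyte-like cells made up 27.1% ± 1.60 (SD, n = 3) of epithelial cells in the Fpr2f/f libraries and 21.2% ± 1.63 in the Fpr2VKO libraries. All Fpr2VKO shares (23.0%, 20.3% and 20.2%) lay below all Fpr2f/f shares (26.1%, 29.0% and 26.3%). The exact two-sided permutation test gave p = 0.1, the smallest that 3 against 3 libraries allow. The groups overlapped with cells of at least 2000 UMIs (24.3%, 29.1% and 30.2% in Fpr2f/f against 25.05%, 22.2% and 25.2%) and with a limit of 40% mitochondrial UMIs (17.2%, 16.6% and 21.8% against 14.3%, 19.9% and 10.2%). By UMIs they overlapped too: enterocyte-like cells held 16.1%, 16.9% and 19.0% of epithelial UMIs in Fpr2f/f libraries 1 to 3 and 16.8%, 19.3% and 17.5% in Fpr2VKO libraries 1 to 3.

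Fabp1 varied between libraries in a way that most classes shared. Its highest level fell in Fpr2VKO library 1 or 2 in 8 of 8 epithelial classes, the unnamed cells included, and its lowest in Fpr2f/f library 3 in 7 of 8. The free RNA of the same libraries was at 163, 129 and 67.9 CPM in Fpr2f/f libraries 1 to 3 and 223, 352 and 113 CPM in Fpr2VKO libraries 1 to 3, with the same libraries at both ends, and the part of free RNA in the class levels was not tested. In free RNA, Fabp2 was at 291, 250.1 and 374 CPM in Fpr2f/f libraries 1 to 3 and 326, 377 and 329 CPM in Fpr2VKO libraries 1 to 3, and the groups overlapped. Dgat1 was at 229.6, 314 and 246 CPM in Fpr2f/f libraries 1 to 3 and 196, 192 and 202 CPM in Fpr2VKO libraries 1 to 3 in free RNA, and they did not overlap.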

How the data were processed

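The authors mapped reads to mm10 with MobiVision (version 2.1) and deposited raw UMI counts per gene and barcode before cell calling, with Seurat 4.0.0 named in the submitters' processing notes. The annotation is not given in the sources used here. Here, barcodes of at least 1000 UMIs, 500 genes and at most 20% mitochondrial UMIs were kept. Doublets were scored against 25% artificial doublets and 0.8% per 1000 cells removed. Cells were clustered (2000 variable genes, 30 components, 20 neighbours, Leiden resolution 1, leidenalg 0.10.2, Python 3.11.15) after alignment by mutual nearest neighbours, without the members and the other lipid genes, and named "-like" from marker lists. UMIs were summed per library and class (at least 20 cells) and tested with edgeR 4.0.16 (R 4.3.3, quasi-likelihood, TMM, filterByExpr, robust), adjusted by Benjamini-Hochberg over all genes tested. The SE is the log2 fold change over the square root of F. DESeq2 1.42.0 was an alternative, and edgeR was tested on simulated data. The members and lists were chosen with earlier results of these data known. Named genes were the members, up to 3 genes of each list by enterocyte-like level, genes called lower between classes (named after their values were seen), and the gene most like each member over clusters; some results are not reported here. Promoter and gene positions come from RefSeq and GENCODE. The floor given for Fpr2 covers counting error only, and each SD was taken over libraries.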

Additional observations from a re-analysis of the deposited data

How the results depend on the processing

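Calls for the group comparisons were few and moved with the settings, over all genes and for the members alike. The counts of genes called were 3 (all epithelial), 11 (enterocyte-like), 21 (TA-like), 25 (stem-like) and 50 (interaction), and 9390 for enterocyte-like against stem-like cells. In that order of the first 5, counts outside 1.5 times these were 110, 196, 56 (stem-like) and 133 (interaction) with DESeq2, and 167, 518, 118, 194 and 146 with no filter on low counts. A limit of 10% mitochondrial UMIs gave 100 (all epithelial), 1 (stem-like), 6 (interaction) and 5633 (classes), and one of 40% gave 1 (enterocyte-like), 10 (TA-like), 5 (stem-like) and 5 (interaction). At least 2000 UMIs gave 1 (enterocyte-like), 7 (TA-like) and 23 (interaction), doublets kept 179 (enterocyte-like) and 505 (interaction), no alignment 2 (enterocyte-like), 7 (TA-like) and 15 (interaction), and resolution 0.5 gave 6 (enterocyte-like), 5 (TA-like), 14 (stem-like) and 10 (interaction). Clusters 1, 5 and 10 alone, chosen after seeing the data, gave 2, 2 and 3. Libraries that share barcodes, as a term and also chosen after seeing the data, gave 67 (enterocyte-like) and 57 (TA-like), and the larger set alone 1 (all epithelial), 2 (enterocyte-like), 7 (stem-like) and 31 (interaction). Without 1 library the counts ran from 1 to 71 (all epithelial, 71 without Fpr2f/f 1), 5 to 436 (enterocyte-like, 436 without Fpr2f/f 1 and 70 without Fpr2f/f 3), 1 to 38 (TA-like, 38 without Fpr2f/f 3), 4 to 160 (stem-like, 160 without Fpr2f/f 1) and 4 to 119 (interaction, 119 without Fpr2VKO 1). The cause was not tested.

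The labels give both groups replicate numbers 1 to 3. The deviations of same-numbered libraries correlated at -0.16, -0.03 and 0.24 in enterocyte-like, -0.08, -0.08 and 0.27 in all epithelial, 0.04, 0.14 and 0.29 in TA-like and 0.00, 0.10 and 0.19 in stem-like cells. The replicate 3 libraries were closest to each other in all 4, and replicate 2 also in stem-like cells, but not every pair exceeded 0.1, so the number is not taken to pair the libraries. Fpr2f/f 3 and Fpr2VKO 3 also form a set by shared barcodes, and the sets were fitted as a term in the results above. With the replicate block the counts were 55 (all epithelial), 101 (enterocyte-like), 106 (TA-like) and 128 (stem-like), and Fabp1 passed in enterocyte-like (log2 fold change 1.28, adjusted p = 0.00704), TA-like and stem-like cells.

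All 149 recomputed enterocyte-like against stem-like values of the members kept their direction and stayed past the threshold. Direction changed for 39 of 675 recomputed group values, none of them called, and for 31 of 159 interaction values. Of the group values, 11 passed the threshold. Of 60 recomputed enterocyte-like levels, 41 stayed within 1 SD. Besides the block, DESeq2, the 10% limit and the term for shared barcodes (Fabp1 in TA-like cells), these were Apoc3 (0.81, adjusted p = 0.000137) and Fabp2 (0.65, adjusted p = 0.0214) in enterocyte-like cells with no filter, and Fabp2 in stem-like cells without Fpr2f/f 1 (0.57, adjusted p = 0.0135), all by edgeR. The enterocyte-like share differed by -5.97 percentage points and by -9.32 to -3.33 under other settings, with an exact permutation p of 0.4 at the 40% limit and 0.3 at 2000 UMIs. Members at a few UMIs a cell, Cd36 first, are limited by depth.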
